A study of Homo sapiens with 8 samples.

Results

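The enzymes that add methyl groups to histone lysines or remove them were examined as RNAs in the RBFOX2 eCLIP data from HEK293T cells, a transformed line derived from human embryonic kidney. The set holds 45 named genes, 30 methyltransferases and 15 demethylases. All 45 were found in the RefSeq gene table of GRCh38.p14, among 59788 genes in all. A peak was counted for a gene when its midpoint lay in the span of the gene on the strand of that gene, and 9070 of 1118316 called peaks met this rule.

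RBFOX2 was immunoprecipitated (IP) from cells irradiated with 254 nm ultraviolet light at a dose of 400 mJ per square centimetre, with 2% set aside as the paired input. The 4 IP libraries and 4 input libraries share the cell line, the irradiation and the target, and no genotype, drug or time differs between them. Each of the 4 deposited lists sets one IP against the input of the same number, so the comparison throughout is IP against input. The labels do not say whether the replicates came from separate cultures, so the spread between them may be technical. Read counts were not used here and the depth behind each value is unknown.

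The lists held between 267691 and 288305 called peaks, most of them without enrichment, and the median log2 fold of IP over input was 0.000771 both for all called peaks and for those in the 45 genes. The deposited folds move in steps and both medians lie on the same step, so their equality does not show equal distributions. LIN28B, which this line is known to express, held 144 called peaks and PAX2 held 13, while ALB, PTPRC, INS and KRT5, which mark liver, blood, pancreas and epidermis, held 0. The markers LHX1, NEFM, HBB and DES had no known strand and could not be counted. Spans of different length were not matched, so these counts are only a description.

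As background, lysine methylation marks chromatin according to the residue. Methyl groups on H3K4 mark promoters and enhancers, those on H3K36 and H3K79 accompany transcribed genes, and those on H3K9, H3K27 and H4K20 are found in silent or compacted chromatin. SET domain enzymes write most of these marks, DOT1L writes the one on H3K79 without a SET domain, and the LSD and JmjC families remove them. RBFOX2 is a splicing factor that recognises the RNA element UGCAUG and binds pre-mRNA as well as mature transcripts.

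Most of the enriched signal in these RNAs came from KDM5A, an H3K4 demethylase, and DOT1L. Enriched peaks were those with a log2 fold and a −log10 p of at least 3 each. In the 45 genes, replicates 1 to 4 held 2216, 2290, 2279 and 2285 called peaks, of which 20, 21, 14 and 23 were enriched (mean 19.5 ± 3.87, SD, n = 4). These were 0.903%, 0.917%, 0.614% and 1.01% of called peaks (mean 0.860% ± 0.170, SD, n = 4), against 0.818% over all peaks of the 4 lists. The difference between these shares was smaller than the spread between replicates. KDM5A and DOT1L together held 63 of the 78 enriched peaks, or 80.8%, from 4.11% of the called peaks.

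The other 43 genes, a split made after the values were seen, held 15 enriched peaks among 8697. Their share of enriched peaks was 0.235%, 0.183%, 0.0912% and 0.182% across replicates 1 to 4 (mean 0.173% ± 0.0599, SD, n = 4). Since the genes with the most enriched peaks were taken out, this share is a description and is not set against that of all peaks.

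An enriched peak in any list was found in 8 of the 45 genes (17.8%), namely KDM5A, DOT1L, SETD5, EHMT1, KMT5C, KMT2D, KMT2B and KDM2B. Of 10505 protein-coding genes with a known strand and a called peak, 8.57% held one. Among 5033 genes with at least 10 called peaks in every list, a minimum set after the values were seen, the share was 15.5%, against 19.0% of the 42 histone enzyme genes that passed the same minimum. The other 37 genes held no enriched peak, although each held called peaks. Across the 45 genes the number of called peaks followed the length of the span (Spearman's rho 0.761), and the number of enriched peaks did so far less with the number of called ones (rho 0.129), both given as descriptions over genes that share the 4 libraries.

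**Figure D1:**
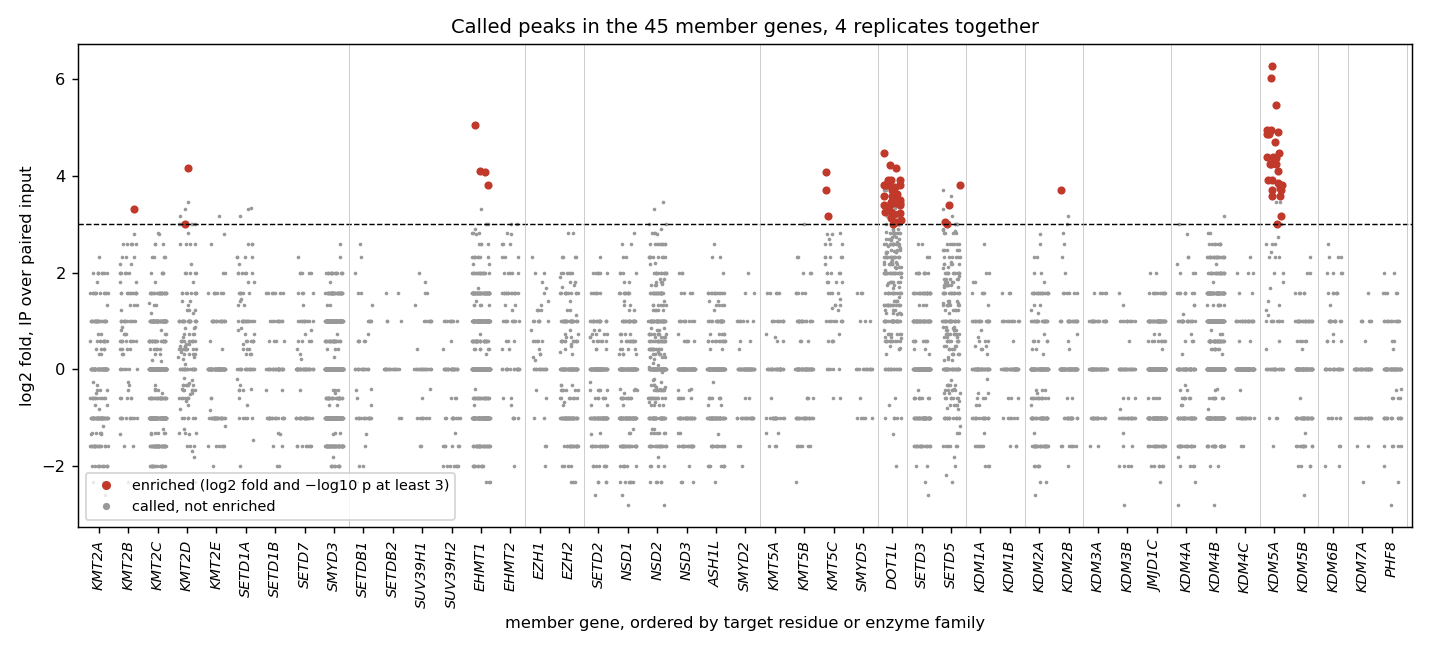
Each point is a called peak of one of the 4 replicates, placed by gene (horizontal axis, grouped by target residue or enzyme family) and by its log2 fold of IP over paired input (vertical axis); red points are enriched and the dashed line is a log2 fold of 3. KDM5A with 28 and DOT1L with 35 enriched peaks hold 63 of the 78, and 37 genes have none.

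Enriched peaks of the 4 replicates that overlapped on the same strand were merged into regions. The 45 genes held 32 such regions, of which 19 were enriched in 1 replicate, 6 in 2, 3 in 3 and 4 in all 4. The share found in all 4 was 12.5%, against 16.4% of the 3371 enriched regions in the series, and the share found in at least 2 was 40.6%, against 47.2%. The 4 regions lay in 2 genes, 3 in KDM5A and 1 in DOT1L, so 4.44% of the 45 genes held one, against 2.13% of the 10505 protein-coding genes. Among genes with at least 10 called peaks in every list these shares were 4.76% and 4.01%. With replicate 3 left out, 7 regions in 3 genes were enriched in all remaining replicates, EHMT1 being the gene added.

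KDM5A removes methyl groups from H3K4. Its span lies at chr12:280057-389320 on the minus strand. Replicates 1 to 4 held 20, 26, 17 and 20 called peaks there, and 8, 7, 5 and 8 of these were enriched. The enriched share over the 4 lists was 33.7%, and 25 of the 5033 genes with at least 10 called peaks per list had a higher one. All 28 enriched peaks fell in chr12:281771-282995, a stretch of 1225 nt that ends 1714 nt from the 3′ end of the span and makes up 1.12% of its length. This stretch was outlined after the values were seen, by joining enriched peaks no more than 1000 nt apart.

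Inside the stretch the length-weighted mean log2 fold was 4.19, 3.48, 4.00 and 4.06 across replicates 1 to 4 (mean 3.93 ± 0.310, SD, n = 4). Over the other called peaks of KDM5A it was 0.49, 0.18, 0.25 and 0.47 (mean 0.35 ± 0.155, SD, n = 4). These values describe the stretch and test nothing, since enriched peaks were used to outline it. No called peak of KDM5A outside the stretch was enriched, and the highest log2 fold there was 3.17, in replicate 3.

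The region with the highest mean log2 fold of the whole set was chr12:282242-282549, which starts 2185 nt from the 3′ end of KDM5A. Its highest log2 fold was 6.27, 4.25, 6.02 and 4.86 across replicates 1 to 4 (mean 5.35 ± 0.957, SD, n = 4). Replicates 1 and 3 were the high ones and replicate 2 the lowest, and even that lay above a log2 fold of 4. The neighbouring region chr12:281896-281970 reached 3.75, 4.86, 4.39 and 4.95 (mean 4.49 ± 0.548, SD, n = 4). Between them, chr12:282076-282178 reached 4.36, 4.46, 3.59 and 4.95 (mean 4.34 ± 0.566, SD, n = 4). Here replicate 4 was the highest in both, so the order of the replicates differed from one region to the next.

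In KDM5A, 4 further regions were enriched in 1 replicate each. Of these, 3 were enriched in replicate 4 alone and joined the near end of the stretch between positions 281771 and 281889, with log2 folds of 3.81, 4.09 and 3.91 in that replicate. The other, at chr12:282946-282995, was enriched in replicate 1 with 3.17 and had a called peak in 3 replicates.

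KDM5B, the other enzyme of this family in the set, was like most of the 45 genes in having no enriched peak. It held 164 called peaks, against 83 in KDM5A, and 0 of them were enriched. Its highest log2 fold was 1.00, 2.00, 1.59 and 2.32 in replicates 1 to 4.

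**Figure D2:**
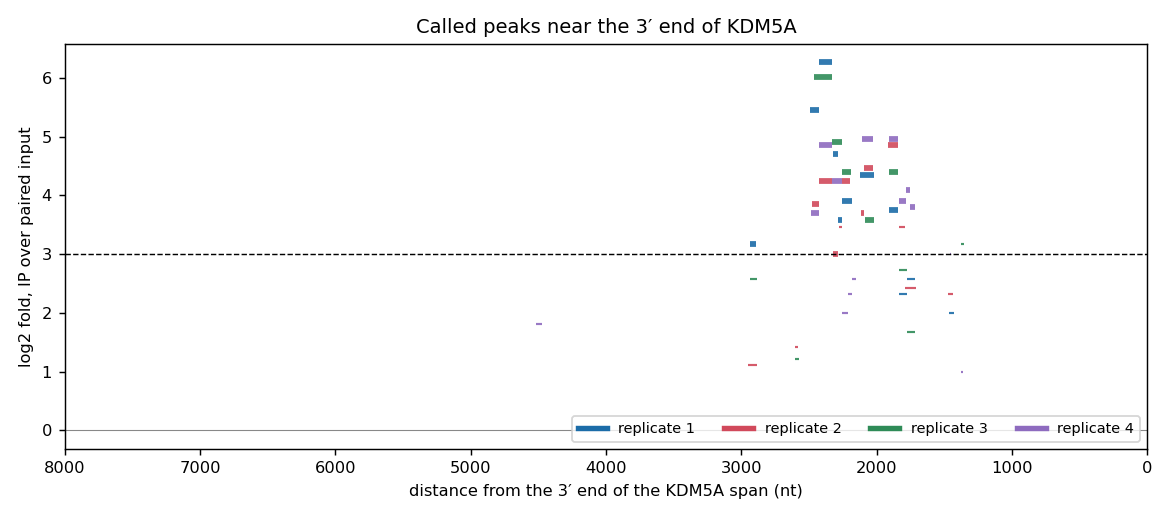
Each bar is a called peak of KDM5A in one replicate (colour), drawn over its extent along the last 8 kb of the span (horizontal axis, distance from the 3′ end in nt) at its log2 fold (vertical axis); thick bars are enriched and the dashed line is a log2 fold of 3. The enriched bars of all 4 replicates lie between 1714 and 2938 nt from the 3′ end.

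DOT1L is the H3K79 methyltransferase. Its span lies at chr19:2163933-2232578, and its strand was missing from the reference and was set to plus from general knowledge of the gene; the plus strand held 290 called peaks in the span and the minus strand 7. Replicates 1 to 4 held 72, 79, 69 and 70 called peaks, of which 7, 10, 7 and 11 were enriched. The enriched share over the 4 lists was 12.1%, and 94 of the 5033 genes had a higher one.

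Of the 35 enriched DOT1L peaks, 30 lay in chr19:2227501-2229585, a stretch of 2085 nt or 3.04% of the span, whose near end was 2993 nt from the 3′ end. It was outlined in the same way as that of KDM5A. Its length-weighted mean log2 fold was 2.78, 3.19, 2.60 and 3.28 across replicates 1 to 4 (mean 2.96 ± 0.325, SD, n = 4), against 1.83, 1.96, 1.60 and 1.64 over the remaining called peaks of the gene (mean 1.76 ± 0.167, SD, n = 4). Here too the outline used the enriched peaks, so a higher level inside was set by that choice.

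Outside the stretches, the median log2 fold of called peaks was 1.5, 1.81, 1.59 and 1.32 in DOT1L and −0.000866, 0.00141, 0.71 and 1.0 in KDM5A, for replicates 1 to 4. Over the whole gene, a log2 fold of at least 0.9, just under the step of a 2-fold ratio, was reached by 84.7%, 86.1%, 79.7% and 77.1% of DOT1L's called peaks across replicates 1 to 4 (mean 81.9% ± 4.2, SD, n = 4). In KDM5A it was reached by 65%, 53.8%, 76.5% and 80% (mean 68.8% ± 11.9, SD, n = 4), so the replicates of the 2 genes overlapped. Over the whole lists this share was between 25.9% and 28.9%. The median log2 fold of DOT1L's called peaks was 2.00, and 56 of the 5033 genes had a higher one. KDM5A's median was also 2.00, a step of the folds, and 42 of its 83 called peaks lay inside the short stretch.

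The DOT1L region enriched in all 4 replicates was chr19:2227501-2227871, which starts 4707 nt from the 3′ end. Its highest log2 fold was 3.77, 4.22, 3.49 and 3.84 (mean 3.83 ± 0.301, SD, n = 4). Its replicates lay closer together than those of any of the 3 KDM5A regions. At chr19:2228107-2228264 the values were 3.39, 3.2, 3.59 and 3.22 (mean 3.35 ± 0.178, SD, n = 4). That region counted as enriched in 3 replicates because the called peaks of replicate 3, which included its highest fold, did not reach both limits in the same peak. At chr19:2229101-2229260 the values were 3.46, 3.91, 2.43 and 3.62 (mean 3.36 ± 0.642, SD, n = 4), with replicate 3 below the limit.

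Of the regions enriched in 2 replicates, 4 lay in the same DOT1L stretch. They had means of 3.52 ± 0.589, 3.11 ± 0.693, 3.04 ± 1.19 and 2.98 ± 0.744 (SD, n = 4 each). In the third of these, chr19:2228931-2229028, replicates 1 and 4 reached 3.58 and 4.46 while replicates 2 and 3 reached 2.00 and 2.12, so the replicates did not cluster around their mean. A further 7 DOT1L regions were enriched in 1 replicate each, 2 inside the stretch and 5 outside it.

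**Figure D3:**
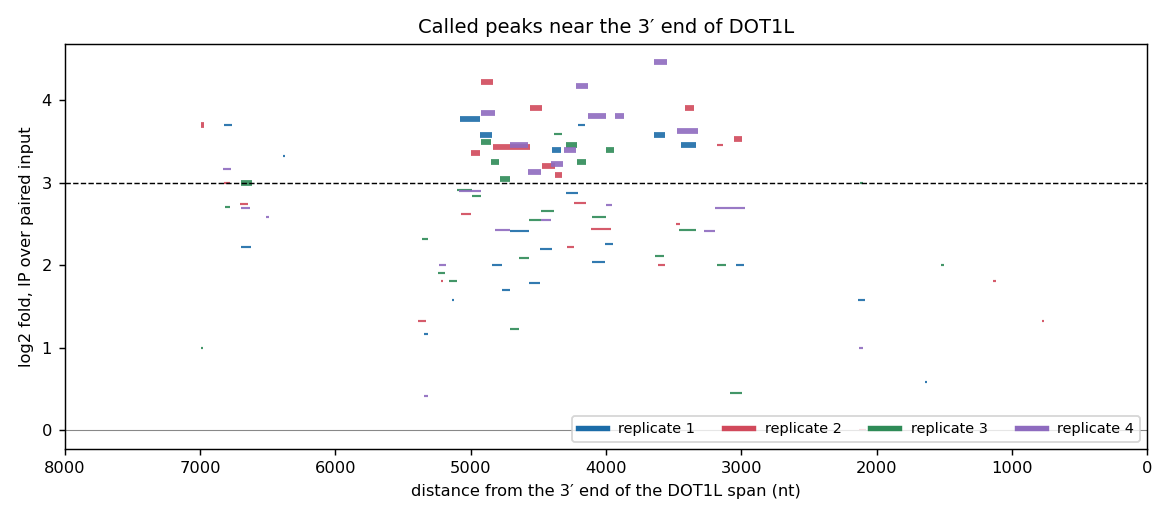
Each bar is a called peak of DOT1L in one replicate (colour), drawn over its extent along the last 8 kb of the span (horizontal axis, distance from the 3′ end in nt) at its log2 fold (vertical axis); thick bars are enriched and the dashed line is a log2 fold of 3. Most enriched bars lie between 2993 and 5077 nt from the 3′ end, and called peaks with log2 folds between 1 and 3 lie among them and further upstream.

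In both genes most enriched peaks lay near the 3′ end. The last 5000 nt of the span, a window chosen after the values were seen, held 77.5% ± 6.48 of the enriched peaks of the 45 genes (mean and SD over replicates, n = 4; 60 of 78 in all) and 7.36% ± 0.491 of their called peaks. Over all protein-coding genes with a known strand the window held 20.4% ± 0.919 of enriched and 13.6% ± 0.0977 of called peaks (SD, n = 4). In the other 43 genes it held 3 of 15 enriched peaks, so the share of the 45 genes describes KDM5A and DOT1L and tests nothing. The reference used here gives spans without exons, so the windows are not assigned to a UTR, an exon or an intron.

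Among the H3K9 writers, EHMT1 (GLP), which forms a complex with EHMT2 (G9a), held 4 enriched peaks among 745. Its region chr9:137804942-137805451 lay 30676 nt from the 3′ end of the span. The highest log2 fold there was 4.09, 3.81, 3.32 and 5.04 across replicates 1 to 4 (mean 4.07 ± 0.725, SD, n = 4). All 4 replicates were above 3, and replicate 3 was not enriched because its −log10 p was 2.20. A second EHMT1 region, chr9:137669354-137669575, was enriched in replicate 4 alone, with log2 folds of 2.17, 1.68, 1.32 and 4.09.

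EHMT2 itself held 0 enriched peaks among 70, but more of its called peaks were raised than in the whole lists (25.9% to 28.9%). A log2 fold of at least 0.9 was reached by 66.7%, 50%, 56.2% and 58.8% of its called peaks in replicates 1 to 4. SETDB1, SETDB2, SUV39H1 and SUV39H2, the other H3K9 writers, held 55, 24, 42 and 66 called peaks and 0 enriched ones. SUV39H1 also had 29 called peaks on the opposite strand of its span.

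The 9 writers assigned to H3K4 held 3 enriched peaks among 2579. KMT2D, a large enhancer-associated methyltransferase, had 2 of them in one region, chr12:49048947-49049041, where the highest log2 fold was 4.17, 3.0, 3.32 and 3.46 (mean 3.49 ± 0.493, SD, n = 4). All 4 values were at or above 3, while the −log10 p was 4.12 and 3.14 in replicates 1 and 2 and 2.20 in both others. KMT2B had 1 enriched peak, in replicate 4 at chr19:35718433-35718601, where the values were 2.32, 2.00, 2.59 and 3.32. KMT2A, KMT2C, KMT2E, SETD1A, SETD1B, SETD7 and SMYD3 had 0, although SMYD3, the longest gene of the set, held 1124 called peaks. The strand of SETD1B was set to plus from general knowledge, and its span held 75 called peaks on that strand and 70 on the other.

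KMT5C, an H4K20 methyltransferase, held 3 enriched peaks among 56 in a short span of 8246 nt. Its region chr19:55345389-55345507 was enriched in replicates 1 and 3, with log2 folds of 4.09 and 3.70, and reached 0.74 and 1.58 in replicates 2 and 4 (mean 2.53 ± 1.62, SD, n = 4). This was the widest spread of the 13 regions enriched in at least 2 replicates, none of which overlapped the span of another gene. As in DOT1L, most called peaks of KMT5C were raised: 83.3%, 71.4%, 88.2% and 69.2% had a log2 fold of at least 0.9 in replicates 1 to 4. The other H4K20 genes, KMT5A, KMT5B and SMYD5, had 0 enriched peaks among 71, 117 and 25.

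**Figure D4:**
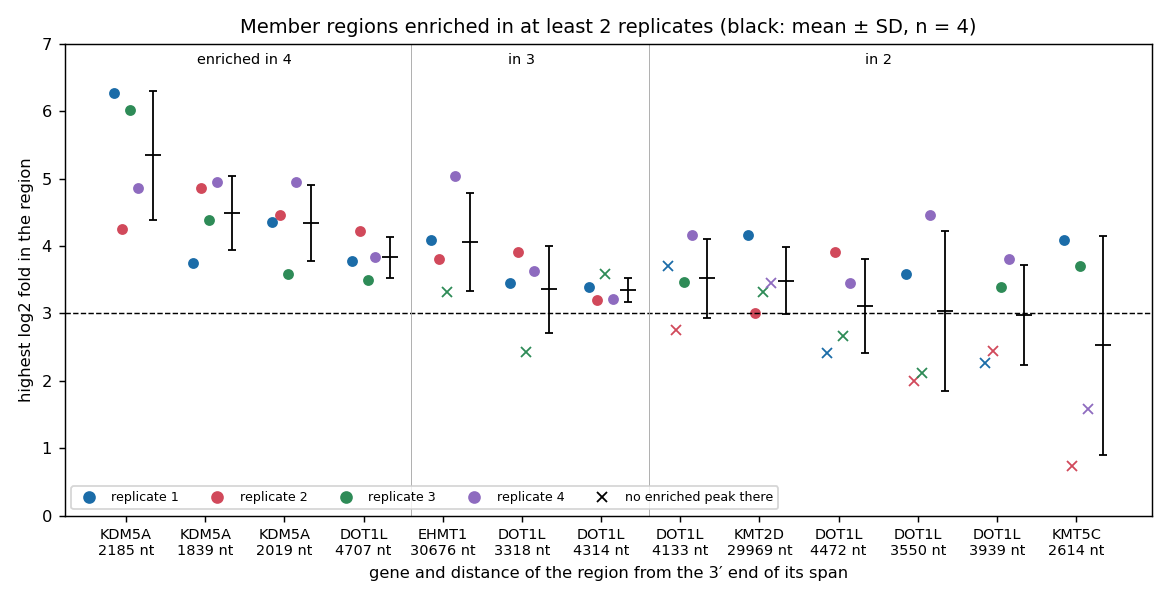
Each coloured symbol is the highest log2 fold of one replicate (vertical axis) in a region enriched in at least 2 replicates (horizontal axis, gene and distance from the 3′ end in nt); crosses are replicates with no enriched peak there, and black bars are the mean ± SD of 4 replicates. KDM5A's first region has the highest mean, 5.35, and KMT5C's region the lowest, 2.53, with the widest spread.

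SETD5, a SET domain protein linked to intellectual disability, held 1 enriched peak in each replicate among 272 called peaks, and each lay in a different region. In replicate 4 the enriched peak reached 3.81 at chr3:9468351-9468423, where replicate 1 had 2.32 and replicates 2 and 3 had no called peak. SETD3, which methylates a histidine of actin, held 0 enriched peaks among 321.

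The H3K27 writers EZH1 and EZH2, the catalytic subunits of Polycomb repressive complex 2, held 0 enriched peaks among 50 and 234. The H3K36 writers SETD2, NSD1, NSD2, NSD3, ASH1L and SMYD2 held 0 among 1413. Among these NSD2 reached the highest log2 folds, 3.46, 2.81, 3.32 and 3.0 in replicates 1 to 4. The strand of NSD3 was set to minus from general knowledge, with 176 called peaks on it and 2 on the other strand.

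Demethylases outside the KDM5 family had a single enriched peak. It lay in KDM2B, an H3K36 demethylase, at chr12:121429235-121429352, and reached 3.70 in replicate 2. The values of the other replicates there were −0.000866, 0.74 and 2.81, so replicates 1 and 3 lay well below replicates 2 and 4. KDM2B also had 42 called peaks on the opposite strand of its span, against 143 on its own. The LSD demethylases KDM1A and KDM1B held 0 enriched among 183 called peaks, the H3K9 demethylases KDM3A, KDM3B and JMJD1C 0 among 568, and KDM4A, KDM4B and KDM4C 0 among 1032. KDM6B, which acts on H3K27, held 0 among 64, and KDM7A and PHF8 held 0 among 170. On the opposite strand of all 45 spans there were 194 called peaks and 0 enriched ones. Over all peaks 0.818% were enriched, so few would be found among 194 in any case. A count of 0 among that many called peaks or fewer, here and for single genes, is only a description.

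The second comparison asked in which regions the log2 fold differed from 0 beyond the spread of the replicates, whatever its size. All called peaks were merged, and limma tested the 49493 merged regions that had one in every list. Where a replicate had several peaks in a region, the one with the highest −log10 p was used, which favours folds above 0. The excess of higher over lower regions may therefore come in part from this choice, and by how much was not tested. Of these, 381 lay in 38 of the genes. The log2 fold was higher than 0 in 77 regions (20.2%) and lower in 4 (1.05%), against 21.1% higher and 1.81% lower over all regions. The median of the mean log2 fold was 0.50 in the genes and 0.50 over all regions, while the median over all called peaks was 0.000771. Equal medians can come from the steps of the folds. At an unadjusted limma p under 0.05 the counts were 118 and 16. The unadjusted share over all regions was not taken, so these 2 counts say nothing particular to the genes. Without replicate 1 or without replicate 4 no region of the whole series passed limma's threshold, the smallest adjusted p being 0.0507 and 0.0506. Without replicate 2, 7 higher regions of these genes passed (1.43% of those tested, against 2.04% over all regions). Without replicate 3, 20 passed (4.03%, against 3.93%).

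The higher regions lay in 24 genes and were unevenly spread. By count, DOT1L came first with 22 of 31 and SETD5 had 11 of 28. KMT5C had 5 of 9, NSD2 5 of 36, KDM5A 4 of 6, EHMT2 4 of 6, KMT2B 3 of 6 and EHMT1 3 of 26. NSD2's share of 13.9% and EHMT1's of 11.5% were below the 21.1% over all regions. A further 14 genes had tested regions but no higher one, among them SETD2 with 10 tested, NSD1 with 13, KDM5B with 10 and KDM2A with 9. SETDB2, SUV39H1, SUV39H2, SMYD2, SMYD5, KDM3A and KDM7A had no region called in all 4 lists. Methyltransferase genes had 68 higher regions of 307 (22.1%) and demethylase genes 9 of 74 (12.2%). Of the 68, DOT1L gave 22 and SETD5 11, and of the 9, KDM5A gave 4, so these shares rest in large part on single genes. Outside DOT1L, SETD5 and KDM5A, a split made after the values were seen, the other 42 genes had 40 of 316 (12.7%).

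**Figure D5:**
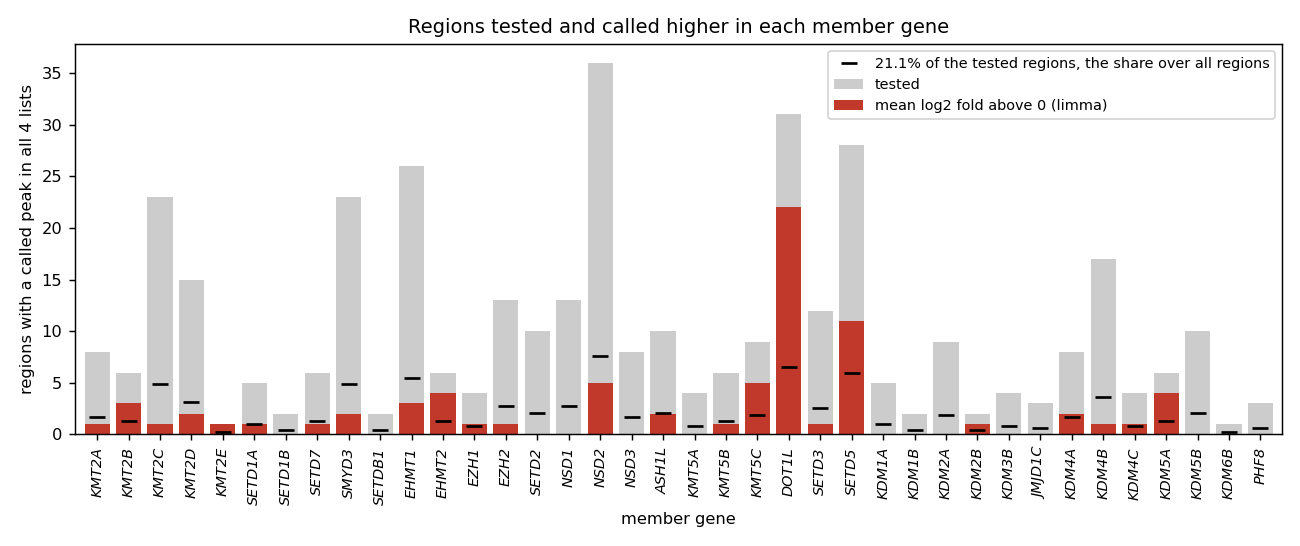
Bars give, for each gene with a tested region (horizontal axis), the number of regions with a called peak in all 4 lists (vertical axis, grey) and the number with a mean log2 fold above 0 at a limma adjusted p of at most 0.05 (red); black ticks mark 21.1% of the tested regions. DOT1L with 22 of 31 and SETD5 with 11 of 28 rise above their ticks, and NSD2 with 5 of 36 stays below.

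The 5 highest means among the regions past limma's threshold were the 3 KDM5A regions, the EHMT1 region and the DOT1L region described above. Their adjusted p from limma was 0.00445, 0.00411 and 0.00433 for KDM5A in the order given, 0.00470 for EHMT1 and 0.00411 for DOT1L, whose merged region gave a mean of 3.79. The log2 fold was above 0 in 4 of 4 replicates in each. Picking the highest means made this likely, so it is no separate support. The KMT2D region passed with an adjusted p of 0.00462 (limma) and the KMT5C region, with its wide spread, did not, at 0.0501.

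Single regions of genes with no or few enriched peaks also passed the test. In NSD2, which writes H3K36 dimethylation, the region chr4:1910945-1911121 had log2 folds of 3.46, 2.81, 3.32 and 3.0 (mean 3.15 ± 0.297, SD, n = 4; limma adjusted p 0.00442). In KMT2E the single tested region, chr7:105045939-105046127, had 2.81, 2.59, 2.00 and 3.17 (mean 2.64 ± 0.490, SD, n = 4; limma adjusted p 0.00647). In KMT5C the region chr19:55345852-55346059 had 3.17, 2.7, 2.81 and 2.32 (mean 2.75 ± 0.349, SD, n = 4; limma adjusted p 0.00515). These 3 regions were picked after their values were seen.

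SETD5 showed a run of moderate regions. The 11 that were higher had means from 1.59 to 2.55. The highest, chr3:9464804-9465053, had 2.87, 3.05, 1.42 and 2.86 in replicates 1 to 4, with replicate 3 the low one. None of the 28 SETD5 regions passed when limma tested the fold against a log2 fold of 1 in place of 0, while 8 of DOT1L's 31 and 4 of KDM5A's 6 did.

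The 5 lowest means among regions past limma's threshold included all 4 lower regions. SETD1B at chr12:121830512-121830596 had log2 folds of −1.32, −2.0, −1.0 and −2.0 (mean −1.58 ± 0.502, SD, n = 4; limma adjusted p 0.0203). NSD1 at chr5:177207861-177208000 and SETD2 at chr3:47141356-47141449, both H3K36 writers, had the same set of values, −1.59, −1.0, −1.58 and −1.59 (mean −1.44 ± 0.293, SD, n = 4; limma adjusted p 0.0173). The deposited folds move in steps, and many regions share the same few values. KDM3B at chr5:138381966-138382035 had −1.0, −2.0, −1.58 and −1.0 (mean −1.40 ± 0.487, SD, n = 4; limma adjusted p 0.0268). None of these 4 lower calls held when any 1 replicate was left out, the smallest adjusted p from limma for them then being 0.0506. Without replicate 1 or without replicate 4 no region of the whole series passed, so those settings cannot tell these calls from any others. The 4 also failed when the fold was tested against a log2 fold of 1, where 93 of 49493 regions in the series were lower. The fifth of the 5 lowest means, in EZH1 at chr17:42701322-42701501, was higher than 0, with a mean of 1.18 ± 0.545 (SD, n = 4; limma adjusted p 0.0479).

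Promoter sequence from RefSeq (GRCh38.p14 windows of 250 bases before to 50 after a start) covered 42 of the genes in 63 windows. Called peaks on the strand of the gene reached 31 windows, enriched peaks reached 0, and only windows of NSD1, EZH2 and EHMT1 had bases covered in all 4 lists. Most of each window lies before the start. The same counts were not made over all promoter windows, so these are only a description. In the EZH2 window at chr7:148883436-148883735 (minus strand) 115 bases were covered, and among them was GCATG, the core of the RBFOX element. Of the 3 windows it is the one that holds GCATG, so the 29 bases around it, chr7:148883639-148883667, are shown 5′ to 3′ on the strand of EZH2 with GCATG in capitals.
EZH2: cgaggggaagggGCATGacacccgggccc
The letters GCATG were found on the strand of the gene in 19.6% of 35116 windows of 300 bases, TGCATG, which contains it, in 5.23%, and GCACG in 17.2%; on the other strand the shares were 19.1%, 5.16% and 17.3%. The highest log2 fold in the EZH2 window was 1.70, 1.91, 0.74 and 1.22 in replicates 1 to 4. The merged region there had a mean of 1.27 ± 0.692 (SD, n = 4), which did not pass the threshold (limma adjusted p 0.0560). The sequences of the KDM5A and DOT1L regions were not used here. The miRNA genes MIR555, MIR1296, MIR7107 and MIR6780A lie in spans of ASH1L, JMJD1C, KDM2B and EZH1, and 0 called peaks lay on them.

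Partners of these enzymes and related enzymes, 48 genes of which 39 had a known strand, held 122 enriched peaks among 7370 (1.66%, against 0.818% over all peaks). Of the 122, 108 were in the CoREST group, which works with KDM1A. All 108 lay in GSE1 and HMG20B, 2 of its 7 genes with a known strand, so they are no trait of the group as a whole. GSE1 of that group held 9 regions enriched in all 4 replicates, and CXXC1 of the COMPASS group, the partner of SETD1A and SETD1B, held 1. In the limma fit, with 21.1% of all regions higher, the CoREST group had 99 higher regions of 199 (49.7%). The COMPASS subunits, of which 5 of 10 had a known strand, had 11 of 25 (44%). The partners of Polycomb repressive complex 2 had 20 of 70 (28.6%) and the other family enzymes 17 of 85 (20%). A mixed list of H3K9 and other partners had 4 of 46 (8.70%). These shares were not split by gene, so they are not shown to be traits of a group as a whole. Lower regions numbered 3 in these lists together. KDM1A, the demethylase of the CoREST complex, had 0 higher regions of 5.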

How the data were processed

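RBFOX2 eCLIP peaks of 4 IP libraries, each with its paired input, were taken from the authors' lists. Per the submitters' processing notes, UMI-tools 1.1.1, cutadapt 3.2 and STAR 2.7.7a were used, with hg38 and GRCh38.p13. The deposited values were read, from their range, as the −log10 of a p-value and the log2 fold of IP over input; the peak caller, the p test and the scaling are not given in the sources used here, so folds are the authors' own. Gene spans came from RefSeq (GRCh38.p14), the strand from its promoter table for 42 genes and from general knowledge for DOT1L, NSD3 and SETD1B. Peaks were merged at an overlap of 1 nt. The log2 fold of each region (per replicate, the peak with the highest −log10 p) was tested against 0 with limma 3.58.1 in R 4.3.3 (intercept only, two-sided, Benjamini-Hochberg over 49493 regions, 0.05). The code was tried on simulated normal values. The folds here move in steps and come from picked peaks, so that trial does not show how the test behaves on them. Python 3.11.15 was used.

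Named in full were regions enriched in at least 2 replicates, and the 5 highest and 5 lowest means past limma's threshold. Members and lists were chosen with earlier results of these data known. Other thresholds, overlaps, strands and limma settings, and leaving out each replicate, were tried.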

Additional observations from a re-analysis of the deposited data

Results flagged for a closer look

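In 37 groups of 4 replicate values, 3 had 1 replicate far from the others, where chance gives about 1 in 20. The number of called peaks in the 45 genes was 2216 in replicate 1, below the 2279 to 2290 of the other replicates, and the whole list of replicate 1 was also the shortest. In the lower region of NSD1, replicate 2 had a log2 fold of −0.998589 against about −1.59 in the others. The lower region of SETD2 had the same value of −0.998589 in replicate 2, since the deposited folds take few values.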

How the results depend on the processing

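The mean of 19.5 enriched peaks per replicate became 10.25 when the −log10 p had to reach 5, and 6.25 when the log2 fold had to reach 4 and p was left free. The 4 regions enriched in all replicates became 7 at a log2 fold limit of 1 and 1 at a limit of 4, which left 1 gene, KDM5A. Leaving out each replicate gave a mean of 18.3 to 21.3 enriched peaks, 4 to 7 regions and 2 to 3 genes. For limma, 77 higher and 4 lower regions became 19 and 0 against a log2 fold of 1, and 102 and 7 with a trend and robust prior. The higher ones were 4.99% and 26.8% of those tested, against 5.60% and 26.1% over all regions. Of all 49493 regions, 93 and 1160 were lower in these settings. Leaving out each replicate gave 0 to 20 higher regions (0% to 4.03%, against 0% to 3.93% over all regions) and 0 to 1 lower ones. None of the 4 lower calls held (the 1 lower call without replicate 3 was in SMYD3). Without replicate 1 and without replicate 4 limma made 0 calls in the whole series. At an unadjusted limma p under 0.05 the regions of these genes then gave 109 higher and 24 lower, and 114 higher and 19 lower. The unadjusted shares over all regions were not taken, so these counts are only a description. limma's prior degrees of freedom were 2.13 with 4 replicates and 1.03 to 1.05 with 3. Of the values of named regions under the alternatives, 31 kept their side of the threshold, 32 were no longer past it, and 0 changed direction. Of the 32, 9 came from leaving out replicate 1 and 9 from leaving out replicate 4, where no region of the series passed. Lowering the log2 fold limit by 0.01, added after seeing the data because a fold step lies on either side of 3 in different lists, moved none of these peak counts.

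No paired analysis was possible because of how the lists are built, other than the test reported: each fold is IP over its own input, so limma's test of the folds against 0 already uses the pairing. The planned share of regions with GCATG, and its alternatives, were not run, since no genome was used here. Depth is unknown.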
